A study of Bos taurus with 8 samples.

Results

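The MX and OAS genes were followed in mural granulosa cells, the hormone-producing cells that line the follicle wall, of dominant follicles of lactating German Holstein cows. Of the 6 genes listed (MX1, MX2, OAS1X, OAS1Y, OAS1Z and OAS2), 4 have a transcript cluster that carries their symbol alone, each with 1 cluster of the 26773 on the array. OAS1X and OAS1Z share 2 clusters that name both genes, so no value could be given to either gene alone, and these clusters are described as OAS1X/OAS1Z and not counted among the 4 members. Rows were taken by gene symbol, and the genes were chosen with earlier results of these data known.

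HS and PF animals were compared, with 1 array for each cow. The 4 cows of the heat stress (HS) group stayed at 28°C and 52% relative humidity (temperature-humidity index 76), and the 4 cows of the pair-fed (PF) group at 15°C and 64% (index 60) with feed matched to the HS cows, per the labels for 96 h. All cows received 500 µg of a prostaglandin F2α analog 72 h before slaughter and 100 µg of a gonadotropin-releasing hormone analog 49 h later, so that the cells were collected 23 h after the latter. The cells were scraped from the follicle wall and were not sorted. Signals are given as log2 values of the robust multichip average (RMA), and the array medians lay between 5.33 and 5.44 in PF and between 5.27 and 5.37 in HS.

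MX proteins are large GTPases of the dynamin family that assemble around incoming viral components and block their replication or transport. OAS proteins sense double-stranded RNA and make short oligoadenylates, which act as second messengers of the antiviral response. Both families are classical interferon-stimulated genes, transcribed when type I or type III interferon acts through JAK kinases on a complex that holds STAT2 and IRF9. In cattle they are best known as markers of the response to interferon tau, the pregnancy signal of the conceptus, in uterus, corpus luteum and blood leukocytes. In place of a single OAS1 gene, cattle carry the closely related OAS1X, OAS1Y and OAS1Z.

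Of these genes, MX1 and OAS1Y were those for which the study designed PCR primers, and they were also those with the clearest difference on the arrays. The primers are shown as the sequences the study designed for these genes, 5′ to 3′ and in lower case throughout. They are not the probes of the array clusters described here:
MX1 forward: gggacgggcggtgttggagca
MX1 reverse: acgcccagggaccgcaggga
OAS1Y forward: ttctggacccggcggaccct
OAS1Y reverse: cttggggcgacacatcccaggagc
The MX1 primers are 21 and 20 bases long and the OAS1Y primers 20 and 24 bases, with a G and C content of 66.7% to 75.0%. No PCR values were analysed here. The study took these genes up on the same cows, so its choice is not independent evidence of their direction.

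The genes lie in a pair of small groups. On the bovine build UMD3.1, MX2 spans chr1:143119272-143155057 on the plus strand, and no position was given for the MX1 cluster. In the RefSeq gene table of assembly ARS-UCD2.0, MX1 and MX2 are adjacent on chromosome 1. On chromosome 17 of UMD3.1, all on the minus strand, OAS2 spans 63611774 to 63640159, OAS1Y 63638182 to 63646117, and the OAS1X/OAS1Z clusters 63654698 to 63678163 (cluster 12745564) and 63670249 to 63678163 (cluster 12746932). The spans of OAS2 and OAS1Y overlap by 1978 bases on the same strand. The OAS1 genes are close copies, and which probes they share is not given in the sources used here, so a signal of one may include transcripts of another.

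MX1 and OAS1Y were lower in HS than in PF granulosa cells, 1.91-fold and 2.05-fold, and in both genes every HS cow lay below every PF cow. MX2 and OAS2 also had lower means in HS (a lower mean was seen in 54.0% of all clusters), but their groups overlapped and neither passed the thresholds. A cluster was called where limma's test gave a change of more than 1.5-fold with p below 0.05 before adjustment. By these thresholds, 2 of the 4 members were lower in HS and 0 higher, where 0.627% of all clusters were called lower and 1.58% higher (2.21% in either direction). Groups did not overlap in 2 of the 4 members, both lower in HS, against 2.00% of all clusters without overlap and lower in HS (4.64% without overlap in either direction). The median log2 fold change of the 4 members was -0.98, beside -0.02 over all clusters. After Benjamini-Hochberg adjustment over all 26773 clusters, limma gave 0 clusters with an adjusted p under 0.05 (smallest 0.60), while 1928 (7.20%) had an unadjusted p under 0.05, and 1802 (6.73%) by the unpaired test of the methods. The members' calls therefore rest on unadjusted p-values.

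**Figure D1:**
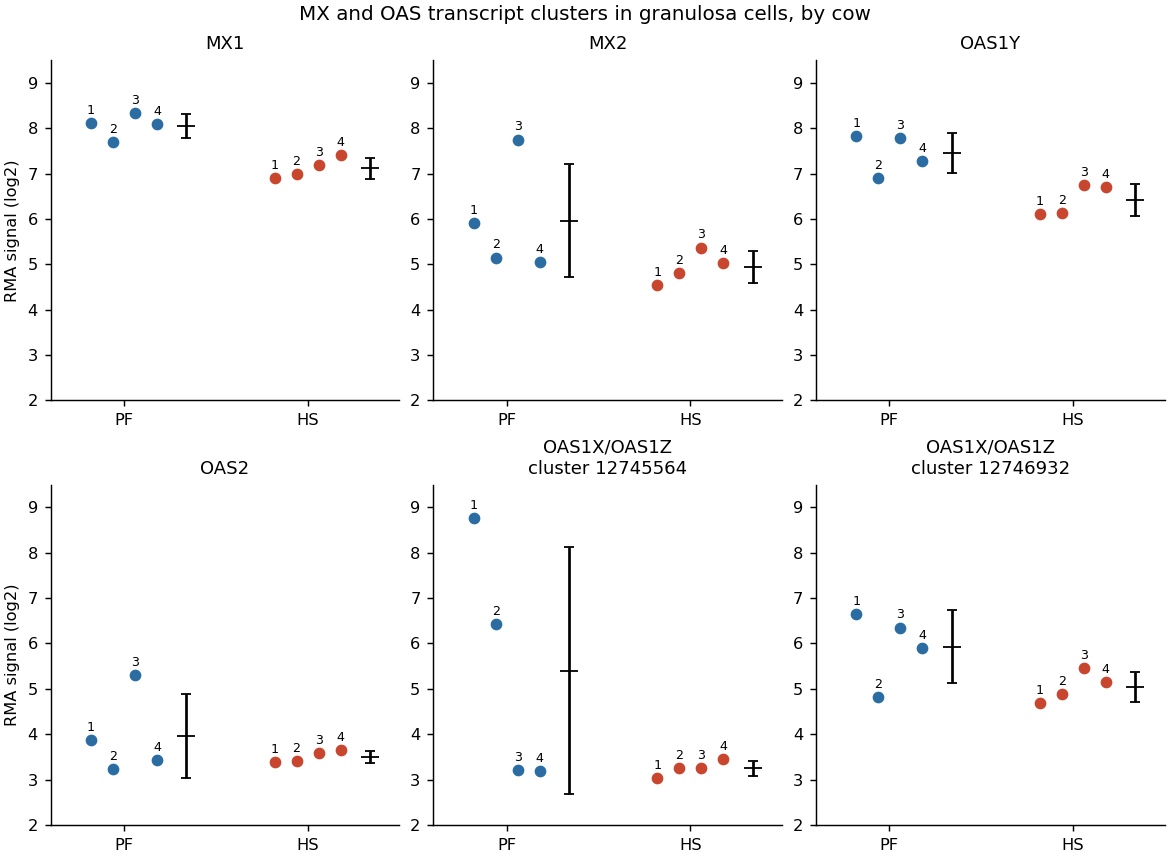
RMA signal (log2, vertical axis) of the 4 members and the 2 OAS1X/OAS1Z clusters in each of 4 PF and 4 HS cows; digits are replicate numbers, and the bar beside each group is the mean with its SD. The groups are apart in MX1 and OAS1Y, MX2 and OAS2 are highest in PF replicate 3, and cluster 12745564 is high in PF replicates 1 and 2 alone.

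MX1, whose protein acts against a range of RNA viruses, had signals of 8.11, 7.69, 8.33 and 8.09 in PF replicates 1 to 4, and of 6.90, 6.98, 7.18 and 7.41 in HS replicates 1 to 4. The lowest PF cow lay 0.27 above the highest HS cow on the log2 scale, and the values within each group kept close together. The means were 8.06 ± 0.27 in PF and 7.12 ± 0.23 in HS (SD, n = 4 each). The log2 fold change was -0.94 (SE 0.17, 95% interval -1.32 to -0.55; limma adjusted p = 0.641). The exact two-sided permutation test gave p = 0.029, the smallest that 4 against 4 cows allow. Ordered by limma's p, MX1 was in place 17 of all clusters, and only 1 called cluster lower in HS had a smaller p. Leaving out any 1 cow moved the log2 fold change between -1.06 and -0.85 and the call was kept in 8 of 8 cases.

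MX2, the second bovine MX gene, had signals of 5.92, 5.15, 7.75 and 5.04 in PF replicates 1 to 4, and of 4.54, 4.80, 5.37 and 5.03 in HS replicates 1 to 4. PF replicate 3 stood far above the others, and PF replicates 2 and 4 lay inside the HS range. The means were 5.96 ± 1.25 in PF and 4.94 ± 0.35 in HS (SD, n = 4 each), a log2 fold change of -1.03 (SE 0.56, 95% interval -2.30 to 0.24; limma adjusted p = 0.683; exact permutation p = 0.11). Its size was thus close to that of MX1, with an SD in PF several times as large. Its log2 fold change was -0.43 once PF replicate 3 was left out, and -1.34 and past the thresholds (limma adjusted p = 0.612) once PF replicate 4 was.

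OAS1Y, one of the bovine OAS1 enzymes, had signals of 7.83, 6.91, 7.79 and 7.27 in PF replicates 1 to 4, and of 6.11, 6.12, 6.74 and 6.71 in HS replicates 1 to 4. The groups did not overlap, with a gap of 0.17 between PF replicate 2 and HS replicate 3. The means were 7.45 ± 0.44 in PF and 6.42 ± 0.35 in HS (SD, n = 4 each). The log2 fold change was -1.03 (SE 0.25, 95% interval -1.61 to -0.46; limma adjusted p = 0.641; exact permutation p = 0.029, again the smallest possible). It stayed between -1.21 and -0.91 with any 1 cow left out and was called in 8 of 8 cases.

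OAS2, a larger OAS enzyme with a repeated catalytic unit, gave a weak signal, on average 3.73. It read 3.87, 3.24, 5.30 and 3.44 in PF replicates 1 to 4, and 3.38, 3.41, 3.58 and 3.65 in HS replicates 1 to 4. Apart from PF replicate 3, and to a lesser degree PF replicate 1, all cows lay in a narrow band. The log2 fold change was -0.46 (SE 0.41, 95% interval -1.39 to 0.47; limma adjusted p = 0.76; exact permutation p = 0.46). Without PF replicate 3 it was -0.01, so that its direction rests on that cow.

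The 2 OAS1X/OAS1Z clusters behaved unlike each other although they overlap in position. Cluster 12745564 read 8.77, 6.43, 3.22 and 3.18 in PF replicates 1 to 4, and 3.03, 3.26, 3.25 and 3.45 in HS replicates 1 to 4. It was high in PF replicates 1 and 2 and near the low end of the array in the other 6 cows, of both groups. Its log2 fold change of -2.15 had an SE of 1.15 and a 95% interval from -4.79 to 0.49 (limma adjusted p = 0.683; exact permutation p = 0.31). It was -1.03 without PF replicate 1, and it passed the thresholds without PF replicate 3 (-2.88, limma adjusted p = 0.433) or PF replicate 4 (-2.89, adjusted p = 0.598).

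Cluster 12746932 read 6.65, 4.81, 6.35 and 5.89 in PF replicates 1 to 4, and 4.69, 4.89, 5.45 and 5.16 in HS replicates 1 to 4. PF replicates 1, 3 and 4 lay above all HS cows, where PF replicates 3 and 4 had been low in the other cluster, and PF replicate 2 lay within the HS range. The log2 fold change was -0.88 (SE 0.38, 95% interval -1.74 to -0.02; limma adjusted p = 0.683; exact permutation p = 0.11). It was past the thresholds, but the call was kept in only 2 of 8 cases with 1 cow left out and was lost in the unpaired test of the methods (adjusted p = 0.725).

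**Figure D2:**
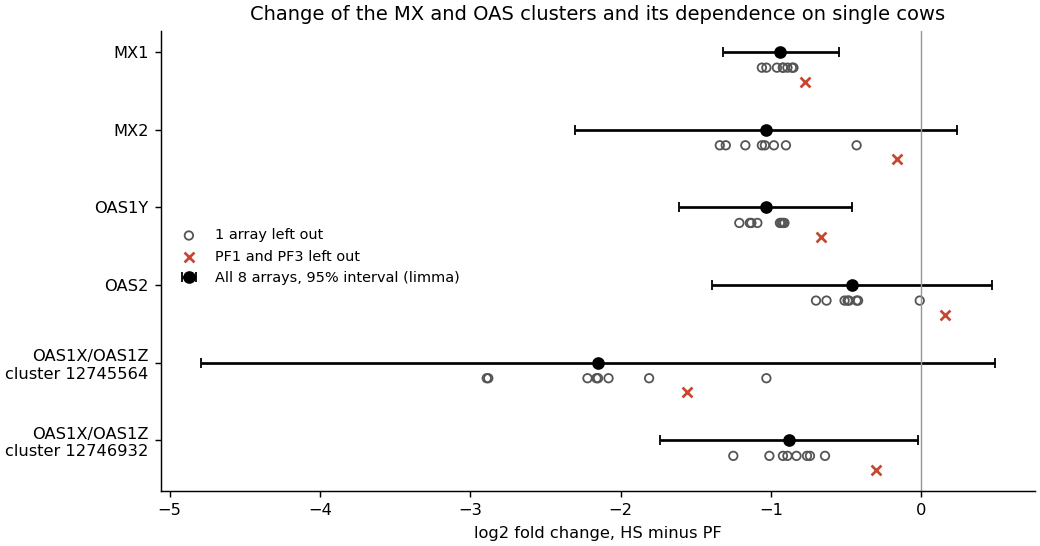
Log2 fold change of HS minus PF (horizontal axis) for each cluster: filled points with bars are all 8 arrays with the 95% interval from limma, open circles leave out 1 array, and crosses leave out PF replicates 1 and 3 together. The intervals of MX1, OAS1Y and cluster 12746932 lie below 0, and the cross of OAS2 lies above 0 at 0.16.

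The cows in which the members were high were not the same for each gene. Profiles over the 8 arrays were compared, after centring each gene on its own mean, by the root mean square (RMS) difference on the log2 scale among 12431 named genes. This measure holds the group difference, so genes with a like difference come out close. The gene closest to MX1 was OAS1Y, at 0.20, followed by HMCN1, an extracellular matrix protein, at 0.20 and RPSA, a ribosomal protein and laminin receptor, at 0.21, beside a median of 0.59 over all genes. For OAS1Y, CORO1A, an actin-binding protein of leukocytes, was closest at 0.18, MX1 was in place 2 at 0.20 and PALM2 in place 3 at 0.23. With the group means taken away, MX1 was in place 82 for OAS1Y and OAS1Y in place 822 for MX1. The RMS difference between these genes was then 0.19, where the RMS of their own deviations was 0.22 for MX1 and 0.35 for OAS1Y. For MX1, OAS1Y was thus little closer than a flat profile.

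MX2 had other neighbors. The closest were MPEG1, a pore-forming protein of macrophages, at 0.21, TNFAIP2 at 0.23 and LRRC71 at 0.24, beside a median of 1.00 over all genes. Like MX2, they peaked in PF replicate 3, with signals of 8.38, 7.90 and 8.16. MX1 was in place 707 and OAS1Y in place 405 for MX2. In the other direction, MX2 was in place 8483 for MX1, at 0.67 beside a median of 0.59. For OAS1Y it was in place 3645, at 0.61 beside a median of 0.69.

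The genes around the members in the interferon pathway were read from lists, with 1 cluster for each gene. At the source of the signal, 7 of 12 interferon genes were matched, 2 with a higher and 5 with a lower mean in HS, and none passed the thresholds. Of these 7, 6 had a mean signal under 5, while IFNAH, an interferon alpha gene, read 5.07 ± 0.24 in PF and 5.04 ± 0.21 in HS (SD, n = 4 each). Of 6 receptor genes none passed. The chains of the type I receptor had well measured signals, with IFNAR1 at 8.53 ± 0.32 in PF and 8.15 ± 0.27 in HS (log2 fold change -0.38, limma adjusted p = 0.683), and IFNAR2 at 7.73 ± 0.16 and 7.44 ± 0.26 (-0.29, adjusted p = 0.683).

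Among 8 signal transducers, 4 had higher and 4 lower means and none passed. STAT2, which carries the signal of type I interferon to the nucleus, read 7.59 ± 0.19 in PF and 7.77 ± 0.07 in HS (SD, n = 4 each), a log2 fold change of 0.18. IRF9, its DNA-binding partner, read 6.24 ± 0.09 and 6.19 ± 0.22 (-0.05). None of 7 negative regulators passed, and their median log2 fold change was -0.21.

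Around the OAS enzymes, 0 of 8 genes of nucleotide second messengers and double-stranded RNA sensing passed the thresholds, with a median log2 fold change of -0.08. ABCE1, which recycles ribosomes, read 8.01 ± 0.34 in PF and 7.78 ± 0.09 in HS (SD, n = 4 each). Of the large GTPases related to MX, 11 of 13 were matched, 2 with higher and 9 with lower means, and 0 passed (median -0.21). DNM2, a dynamin of endocytosis, had a log2 fold change of 0.40 (limma adjusted p = 0.683).

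Other interferon-stimulated genes moved in both directions. Of 44 listed, 40 were matched, 29 with a lower and 11 with a higher mean in HS, with 6 called lower, 3 called higher and a median log2 fold change of -0.40. Over all clusters, 54.0% had a lower mean, 0.627% were called lower and 1.58% higher. The 9 calls became 5 without PF replicate 1 and 17 without PF replicate 2. CMPK2, a mitochondrial nucleotide kinase, rose by 0.62 on the log2 scale (limma adjusted p = 0.624), with 6.34 to 6.68 in PF and 7.06 to 7.26 in HS. RNF213, a large ubiquitin ligase, rose by 0.72 (adjusted p = 0.641) and SAMHD1, which degrades deoxynucleotides, by 0.97 (adjusted p = 0.683), and in both genes every HS cow lay above every PF cow. IFI6, a mitochondrial protein, fell by 0.97 (adjusted p = 0.683), and its groups overlapped. The other 5 genes called lower were IFI47, IFI27, IFIT1, PSMB8 and B2M, with log2 fold changes from -2.33 (IFI47) to -0.60 (B2M) and overlap between groups in each. With 1 cow left out in turn, the call was kept in 8 of 8 cases for IFI47, 7 for IFIT1, 4 for IFI27, and 2 each for PSMB8 and B2M. RSAD2, an antiviral radical enzyme, and IFIT3, a partner of IFIT1, were lower in every HS cow than in any PF cow, with log2 fold changes of -0.54 (limma adjusted p = 0.641) and -0.53 (adjusted p = 0.683), which did not reach the fold threshold. IFIT3 and IFIT1 were weak, with means of 4.50 and 4.37, and for IFIT3 PF replicate 4 (4.36) lay close to HS replicate 2 (4.32). In this list 5 genes were without overlap, 2 of them lower, where 4.64% of all clusters had no overlap and 2.00% were also lower. PSMB8 and B2M serve antigen presentation, as a subunit of the immunoproteasome and as the light chain of MHC class I, and IFIT1 binds foreign RNA. ISG15, the ubiquitin-like modifier often measured beside MX1, was weak and read 4.68 ± 0.20 in PF and 4.63 ± 0.14 in HS (SD, n = 4 each).

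**Figure D3:**
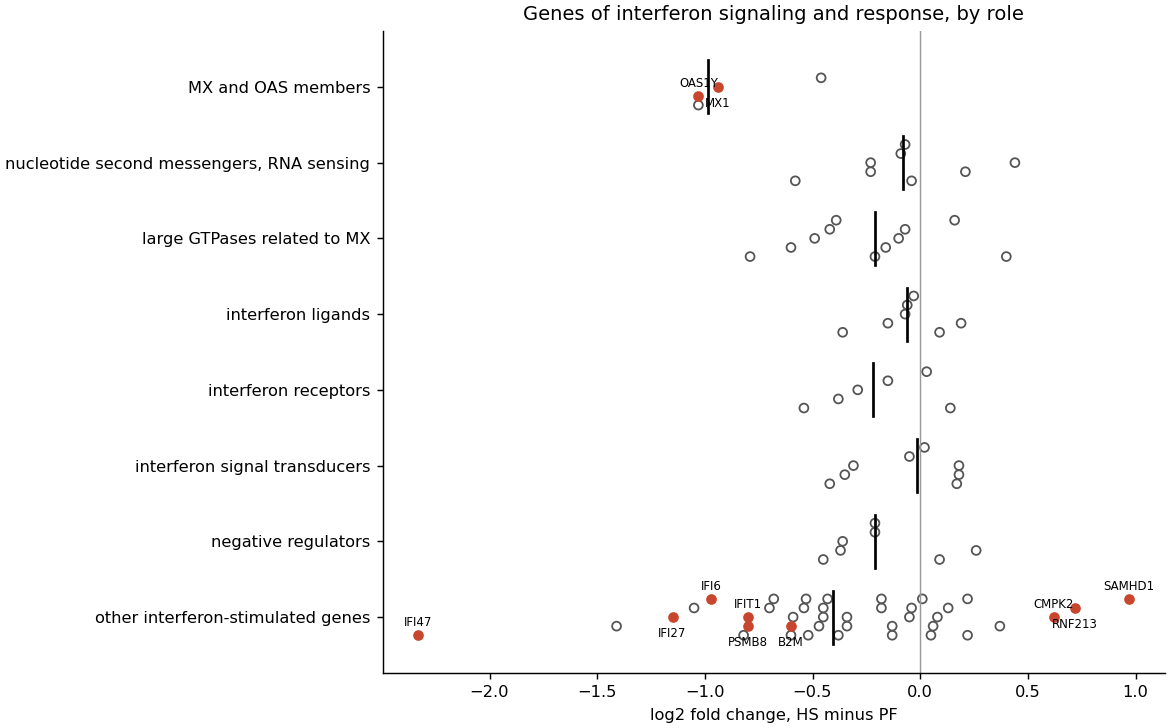
Log2 fold change of HS minus PF (horizontal axis) for the 4 members and for the matched genes of 7 lists of the interferon pathway, 1 point for each gene; filled red points passed the thresholds and are named, and black lines are medians. The members have a median of -0.98, and the called genes among the other interferon-stimulated genes lie on both sides of 0.

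The cells were checked against markers of the cell types a follicle wall can hold, given as mean log2 signal of a list. For comparison, 54.0% of all clusters had a lower mean in HS, 0.627% were called lower and 1.58% higher. Granulosa markers read 7.70 to 9.10 in PF and 9.06 to 9.54 in HS, with 13 of 14 higher in HS. Of these, 1 was called (FST, without overlap between groups), and the lowest list mean was that of PF replicate 3. Single markers split in that cow. Among PF cows it was lowest in TNFAIP6 (6.12), PTX3 (6.08), HSD3B1 (7.36), INHA, CYP11A1, NR5A2, GATA4, AMH and STAR. It was highest in INHBA (9.97), FSHR (8.57), FOXL2 (8.25) and CYP19A1 (6.92), and neither in FST. Theca markers read 6.31 to 8.49 in PF and 7.70 to 8.17 in HS, with 3 of 5 higher in HS and 1 called (PTCH1, higher). Their list mean was again lowest in PF replicate 3. Myeloid markers read 5.44 to 7.40 in PF and 5.27 to 6.17 in HS, with 13 of 13 lower in HS and 1 called (CD14). Lymphocyte and general leukocyte markers read 4.82 to 5.67 and 4.62 to 5.10, with 17 of 18 lower and 3 called (CD3D, IL7R and CORO1A). Of 6 listed markers of plasmacytoid dendritic cells, a main source of type I interferon, IL3RA and CLEC4C were not matched. The 4 matched were all lower in HS with 0 called, and read 5.24 to 6.82 and 5.03 to 5.56. Their mean was highest in PF replicate 3, as were IRF8 (7.33) and TLR7 (7.31). TCF4 was highest in PF replicate 1 (8.67) and TLR9 in PF replicate 2 (4.80). Endothelial markers (10 of 10 lower in HS, 0 called) read 5.51 to 8.51 and 5.33 to 7.86, and fibroblast and smooth muscle markers (11 of 11 lower, 1 called) 7.53 to 9.86 and 7.04 to 9.04. These lists overlapped between groups, and array signals do not reach 0, so no marker could be called absent. The directions depended on single cows. Without PF replicates 1 and 3, the myeloid markers CD68, CSF1R, ITGAX, AIF1, FCER1G, LYZ and S100A8 had a higher mean in HS (LYZ, log2 fold change 0.41). The other matched myeloid markers stayed lower (S100A9, -0.37). Of the granulosa markers, CYP11A1, INHA, GATA4, TNFAIP6 and PTX3 then turned lower in HS, beside STAR. The highest myeloid and leukocyte means were those of PF replicate 3 and the highest endothelial and fibroblast means those of PF replicate 1. Their part in the differences of the MX and OAS genes was not tested, and in such bulk samples fewer cells of a type and less RNA per cell cannot be told apart.

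Without PF replicates 1 and 3, MX1 and OAS1Y were still called lower in HS, by smaller amounts. For MX1, OAS1Y, MX2, OAS2 and cluster 12746932, these cows had the highest PF signals. Leaving both out therefore had to lower the PF mean and with it the difference, whatever its origin. The log2 fold change was -0.77 for MX1 (limma adjusted p = 0.344) and -0.67 for OAS1Y (adjusted p = 0.419), where 0.571% of all clusters were called lower and 2.53% in either direction. MX2 was at -0.16 (limma adjusted p = 0.815) and OAS2 at 0.16 (adjusted p = 0.649), the opposite direction. The OAS1X/OAS1Z clusters were at -1.56 (cluster 12745564) and -0.30 (cluster 12746932), neither past the thresholds. Of the 9 called genes among the other interferon-stimulated genes, CMPK2 and IFI27 were called here as well, and the other 7 were not.

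**Figure D4:**
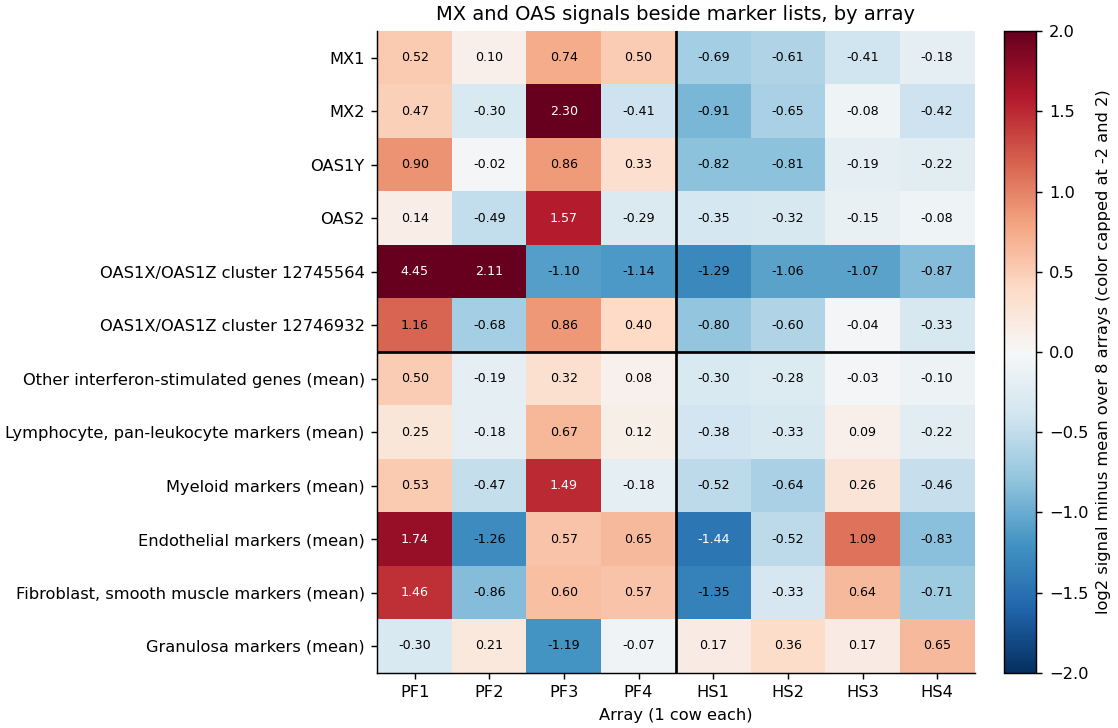
Log2 signal minus the mean over the 8 arrays (color and number) for the 6 clusters and for the mean of each list of genes; columns are the PF and HS cows. MX2, OAS2 and the mean of the myeloid markers are highest in PF replicate 3. The mean of the granulosa markers is lowest there (7.70), while FOXL2, FSHR, INHBA and CYP19A1 are higher there than in the other PF cows.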

How the data were processed

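Total RNA of granulosa cells from 8 cows was hybridised to Affymetrix Bovine Gene 1.0 ST arrays. The authors made the deposited log2 values with the Affymetrix Expression Console by RMA (background correction, quantile normalization, summary to transcript clusters). Such normalization sets signals relative to the whole array, and precision is limited by how few arrays there are. The deposited tables differed by at most 1.8e-15. No filter was set on weak signals.

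For all 26773 clusters, a linear model of HS against PF was fitted in limma 3.58.1 (lmFit, eBayes; R 4.3.3), with Benjamini-Hochberg adjustment over all of them. The authors used an unpaired analysis of variance in the Transcriptome Analysis Console 3.0, and its thresholds were kept. As an alternative, an unpaired t-test on the same linear model without eBayes was run in R, here called the t-test of the methods. The Console itself was not run, so counts need not equal those of the authors. Single clusters were also tested by exact two-sided permutation over 70 assignments. The labels name separate cows. The script was tested on simulated data.

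The members and gene lists were chosen with earlier results of these data known. Named genes were all members, their 3 closest profiles, up to 4 called genes for each pathway list by smallest p (otherwise up to 2 of the highest mean), and IFNAR1, IFNAR2, STAT2, IRF9 and ISG15. Some single genes that this rule names are not reported here. Called marker genes, IFI47, IFI27, IFIT1, IFIT3, RSAD2, PSMB8 and B2M were named after their values were seen. Alternatives changed the test, averages, filters, scaling, replicates and pairing.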

Additional observations from a re-analysis of the deposited data

Results flagged for a closer look

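In 12 groups of 4 cows (6 clusters in PF and in HS), the highest or lowest cow was tested for standing apart from the other cows of its group by Dixon's criterion, and 0 groups passed its 95% limit. With so few cows this does not show that no cow stood apart. PF replicate 3 stayed under the limit for MX2 (7.75). For cluster 12745564, PF replicates 1 and 2 were both high (8.77 and 6.43), and such cows can hide each other.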

How the results depend on the processing

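MX1 and OAS1Y were called lower in HS in 20 of 20 alternatives each, with adjusted p between 0.144 and 0.972 for MX1 and between 0.192 and 0.972 for OAS1Y. Several of these alternatives could hardly change a call. The other deposited table holds nearly the same values, and the filters left the values of MX1 and OAS1Y unchanged. Averaging by Tukey's biweight changed the fold change alone and kept the p of the main fit. MX2 was called in 1 of 20 (adjusted p 0.423 to 0.972), with a log2 fold change of -0.45 between Tukey's biweight averages and -0.35 with array weights, and OAS2 in 0 of 19 (0.504 to 0.982). OAS2 was 0.16 without PF replicates 1 and 3. Cluster 12746932 was called in 9 of 19 and was lost after array medians were subtracted (-0.82) or quantile normalization was repeated (-0.83).

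The number of all clusters past the thresholds, 591, was 355 by the t-test of the methods and lay between 333 and 1566 with 1 cow left out, lowest without HS replicate 1 and highest without PF replicate 2. It was 384 without PF replicate 1, 908 without PF replicate 3 and 907 without PF replicate 4. The number of other interferon-stimulated genes past the thresholds, 9, ranged from 5 (without PF replicate 1) to 17 (without PF replicate 2), and was 2 without PF replicates 1 and 3. These alternatives for that list, and those of cluster 12746932 as a further member, were chosen after seeing the data. The median of the members ranged from -1.14 to -0.64 with 1 cow left out, and was -0.42 without PF replicates 1 and 3. These were the highest PF cows for each member, so leaving both out had to move this median upward. Why these cows were high was not tested. The number of members past the thresholds was 3 without PF replicate 4, 3 with cluster 12746932 added, and 2 in the other alternatives.

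The labels give no link between cows of the same number beyond that number, and whether feed was matched cow by cow is not stated. Their deviations from the group means correlated at -0.27, 0.21, 0.0844 and 0.0064 for replicates 1 to 4. With the replicate number as a block, 669 clusters and 2 members passed, and the median of the members was -0.98. The mean of all clusters of a symbol gave no further value, since each member has 1 cluster. Weak signals, such as those of OAS2, limit what the arrays can show.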
